A study of Mus musculus with 7 samples.

Results

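The genes described here are the 10 G1 cyclins and CDK inhibitors Ccnd1, Ccnd2, Ccnd3, Ccne1, Ccne2, Cdkn1a, Cdkn1b, Cdkn1c, Cdkn2b and Cdkn2c. They were taken by symbol from a table of 24964 genes, and all 10 were listed in it. Their transcripts were measured by RNA sequencing of whole uterus from 12-week-old mice staged at diestrus. The control group had 3 libraries of genotype Pgrcre/+, numbered 1, 2 and 4. The other group had 4 libraries of genotype Pgrcre/+Foxl2LsL/+, numbered 1 to 4. All 7 libraries thus carried the Pgrcre allele, in which Cre recombinase is made from the progesterone receptor locus, so recombination is directed to tissues that express this receptor. The study's title concerns overexpression of the forkhead factor FOXL2.

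G1 is the phase in which a cell either commits to copying its DNA or leaves the cycle. D-type cyclins bind CDK4 and CDK6 in response to growth signals and start the phosphorylation of the retinoblastoma protein. This releases E2F factors, which switch on cyclin E and the replication genes, and cyclin E with CDK2 completes the step into S phase. The Cip/Kip proteins (Cdkn1a for p21, Cdkn1b for p27, Cdkn1c for p57) inhibit cyclin-CDK complexes broadly, while the INK4 proteins (Cdkn2b for p15, Cdkn2c for p18) bind CDK4 and CDK6. In the uterus, proliferation of epithelium and stroma follows estrogen and progesterone through the cycle, and Ccnd2 is a reported FOXL2 target.

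The targeted gene itself did not separate the groups. Foxl2 was at 11.1, 19.3 and 12.9 FPKM in controls 1, 2 and 4 and at 12.7, 14.3, 14.8 and 17.2 FPKM in libraries 1 to 4 labelled Foxl2LsL (log2 fold change 0.06, SE 0.18; adjusted p 0.818, limma with Benjamini-Hochberg). FPKM means fragments per kilobase of gene, scaled to the fragments of the library. Directions below therefore follow the labels as they stand. Library denominators recovered from the values were 47800000 to 67300000 fragments (rounded), and at least 47 fragments lay on each of the 10 genes in every library. Of 8 uterine identity markers, all passed the filter on low values. In the libraries labelled Foxl2LsL 4 were lower and 1 higher, beside 40.6% of all tested genes that passed in either direction. The summed level of these markers was 325 to 403 FPKM in controls and 216 to 229 FPKM in the other group. Markers of ovary were near 0, with a summed level of 0.548 to 1.73 FPKM over all libraries.

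Upstream sequences are shown for Ccne1 and Cdkn2c because both genes fell and a window of each holds the letters TCCCGC, a core of E2F binding sites. Each line gives the 250 bases before a RefSeq transcription start on GRCm38.p6, read 5′ to 3′ along the gene, with TCCCGC or its reverse complement GCGGGA in capitals. The Ccne1 window is chr7:38107491-38107740 and the Cdkn2c window shown is chr4:109666757-109667006, both on the minus strand. Cdkn2c has a second RefSeq start, whose window, chr4:109665373-109665622, holds no such letters and is not printed.
Ccne1: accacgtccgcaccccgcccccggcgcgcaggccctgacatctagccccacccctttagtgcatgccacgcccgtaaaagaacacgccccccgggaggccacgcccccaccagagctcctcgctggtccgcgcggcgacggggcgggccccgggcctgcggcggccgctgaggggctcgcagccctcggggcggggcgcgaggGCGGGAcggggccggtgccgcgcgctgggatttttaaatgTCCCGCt
Cdkn2c: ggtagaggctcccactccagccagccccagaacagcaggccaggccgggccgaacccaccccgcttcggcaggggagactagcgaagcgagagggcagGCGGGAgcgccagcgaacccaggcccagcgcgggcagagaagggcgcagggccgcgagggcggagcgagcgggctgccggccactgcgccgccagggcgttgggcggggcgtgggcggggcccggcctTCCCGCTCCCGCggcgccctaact
In Ccne1 the matches began 47 and 7 bases before the start, and in Cdkn2c they began 152, 24 and 18 bases before it, the last 2 back to back. RefSeq windows were matched for 6 of the 10 genes, and 2 of the 6 (33.3%) held the letters in at least 1 window. Ccnd1, Ccnd2, Ccne2 and Cdkn1c had no matched window, so they were not searched for any of the letters named here. Counted the same way, on either strand, 18.8% of all 27025 genes with windows of this length held them, as did 16.9% of the 32851 windows. The printed windows of Ccne1 and Cdkn2c had 76.0% and 77.2% G and C, and the other Cdkn2c window had 42.8%. A longer E2F consensus, TTTNNCGC on either strand, was in none of the 6 genes' windows and in 4.28% of all windows. The forkhead letters TGTTTAC, on either strand, were in 3.17% of all windows and, among the 6 genes, in Ccnd3 alone, where the match began 243 bases before a transcription start. Matches describe letters only and are not sites of binding.

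Among the 10 genes, Ccne1, Ccne2, Cdkn1c and Cdkn2c fell, Ccnd2 rose, and 5 did not pass the test in the libraries labelled Foxl2LsL. All 10 passed the filter on low values (a mean of at least 1 FPKM over the 7 libraries). A gene passed the test at an adjusted p under 0.05 from limma on log2(FPKM + 1), with Benjamini-Hochberg adjustment over all 13334 tested genes. Of all tested genes, 40.6% passed, 16.7% as higher and 23.9% as lower, so 5 of 10 is close to that share. The groups did not overlap in 7 of the 10 genes and in 47.6% of all tested genes. The median log2 fold change was -0.30 over the 10 genes and -0.05 over all tested genes. Nothing in the labels says that libraries came from separate animals, so p-values measure the spread between these samples, which may be technical.

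**Figure D1:**
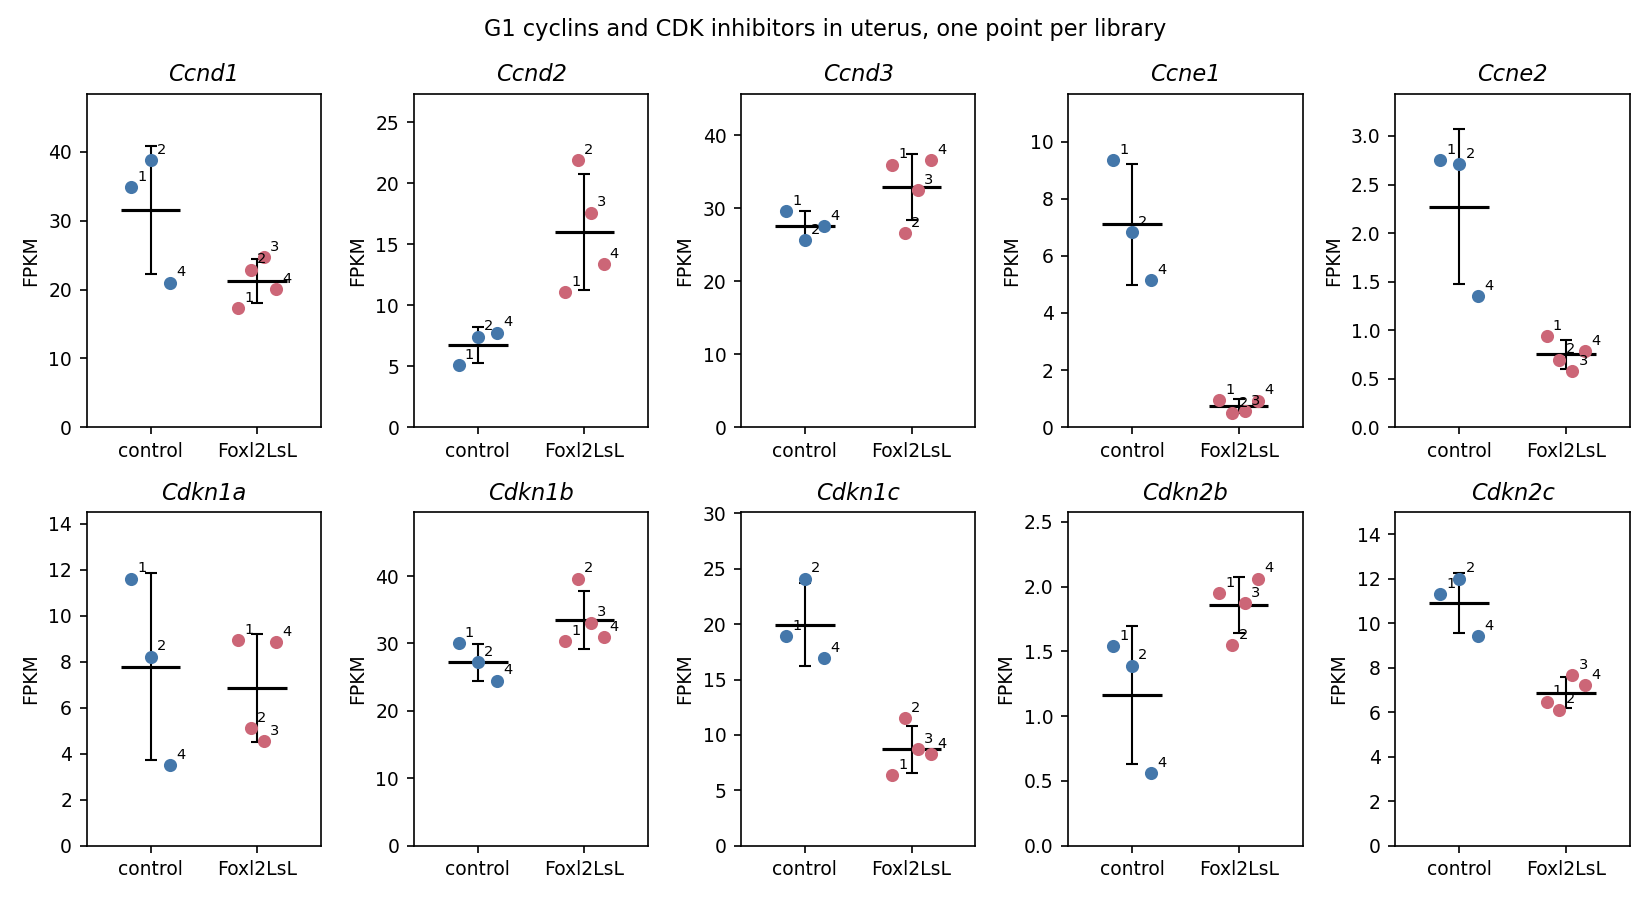
Level of each gene in FPKM (vertical axis, from 0) in the 3 control libraries (blue) and the 4 libraries labelled Foxl2LsL (red), 1 point per library with its number, with the group mean and SD as bars. Ccne1 lay at 5.14 to 9.35 FPKM in controls and at 0.503 to 0.960 FPKM in the other group, and Ccnd2 lay higher in all 4 libraries labelled Foxl2LsL than in any control.

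The D-type cyclins changed in composition more than in sum. Ccnd2 rose, while Ccnd1 and Ccnd3 did not pass the test. Controls 1, 2 and 4 had 5.09, 7.42 and 7.75 FPKM of Ccnd2 (cyclin D2; chromosome 6, 127125162 to 127152193, minus strand; coordinates here and below are those of GENCODE M21, build GRCm38). Libraries 1 to 4 labelled Foxl2LsL had 11.1, 21.9, 17.6 and 13.4 FPKM. Every one of these 4 values lay above every control, and within that group library 2 was the highest and library 1 the lowest. Mean Ccnd2 was 6.75 ± 1.45 (SD, n = 3) against 16.0 ± 4.78 FPKM (SD, n = 4), a ratio of 2.37, and the log2 fold change was 1.11 (SE 0.23; adjusted p 0.00766, limma with Benjamini-Hochberg). Levels of adipose markers varied between libraries in the same direction as Ccnd2 in part. Their mean log2(FPKM + 1) over 5 tested genes was 0.12, 1.21 and 3.66 in controls 1, 2 and 4, and 0.57, 4.15, 5.05 and 1.89 in the other group. Of these 5 genes, 0 passed the test and 0 had an unadjusted p under 0.05 (limma), and the summed level of all 6 adipose markers was 0.460 to 102 FPKM in controls and 2.82 to 269 FPKM in the other group. With that mean as a covariate, chosen after seeing the data, the log2 fold change of Ccnd2 was 0.91 (adjusted p 0.00376, limma). An antisense gene that overlaps Ccnd2, 9330179D12Rik, was at 0.129 ± 0.0235 and 0.504 ± 0.0831 FPKM and lay below the filter. Whether strand was used in counting is not stated, so reads of the pair cannot be told apart.

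Ccnd1 (cyclin D1; chromosome 7, 144929931 to 144939925, minus strand) was at 34.9, 38.8 and 21.0 FPKM in controls 1, 2 and 4 and at 17.3, 22.9, 24.7 and 20.1 FPKM in the other group. Control 4 lay inside the range of the libraries labelled Foxl2LsL, while controls 1 and 2 lay above it. The log2 fold change was -0.52 (95% interval -1.01 to -0.02; adjusted p 0.0863, limma with Benjamini-Hochberg). Without control 4 it was -0.78 with an adjusted p of 0.00503 (limma), the only 1 of 19 alternatives in which Ccnd1 passed. Without control 1 it was -0.425 (adjusted p 0.2095, limma), and without control 2 it was -0.35 (adjusted p 0.266, limma). Ccnd3 (cyclin D3; chromosome 17, 47505051 to 47599691, plus strand) was at 29.6, 25.6 and 27.6 FPKM in controls 1, 2 and 4 and at 36.0, 26.6, 32.5 and 36.6 FPKM in the other group. Foxl2LsL library 2 lay among the controls and the other three lay above them, with a log2 fold change of 0.24 (95% interval -0.03 to 0.51; limma, adjusted p 0.140). Without library 2 labelled Foxl2LsL it was 0.33 with an adjusted p of 0.0229 (limma), the only 1 of 19 alternatives in which Ccnd3 passed. Bysl, which overlaps Ccnd3 on the opposite strand, fell from 7.25 ± 0.347 to 3.41 ± 0.523 FPKM.

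The summed FPKM of the D cyclins was 69.5, 71.8 and 56.3 in controls 1, 2 and 4 and 64.3, 71.5, 74.8 and 70.2 in the other group, and these ranges overlapped. Ccnd1 made up 37.3% to 54.1% of that sum in controls and 26.8% to 33.0% in the libraries labelled Foxl2LsL. The share of Ccnd2 was 7.32% to 13.8% and 17.2% to 30.7%, and that of Ccnd3 was 35.6% to 48.9% and 37.3% to 55.9%. Ccnd1 was thus 2.71 to 6.85 times as abundant as Ccnd2 in controls and 1.04 to 1.56 times in the other group. These shares are sums over genes chosen for description and were not tested.

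**Figure D2:**
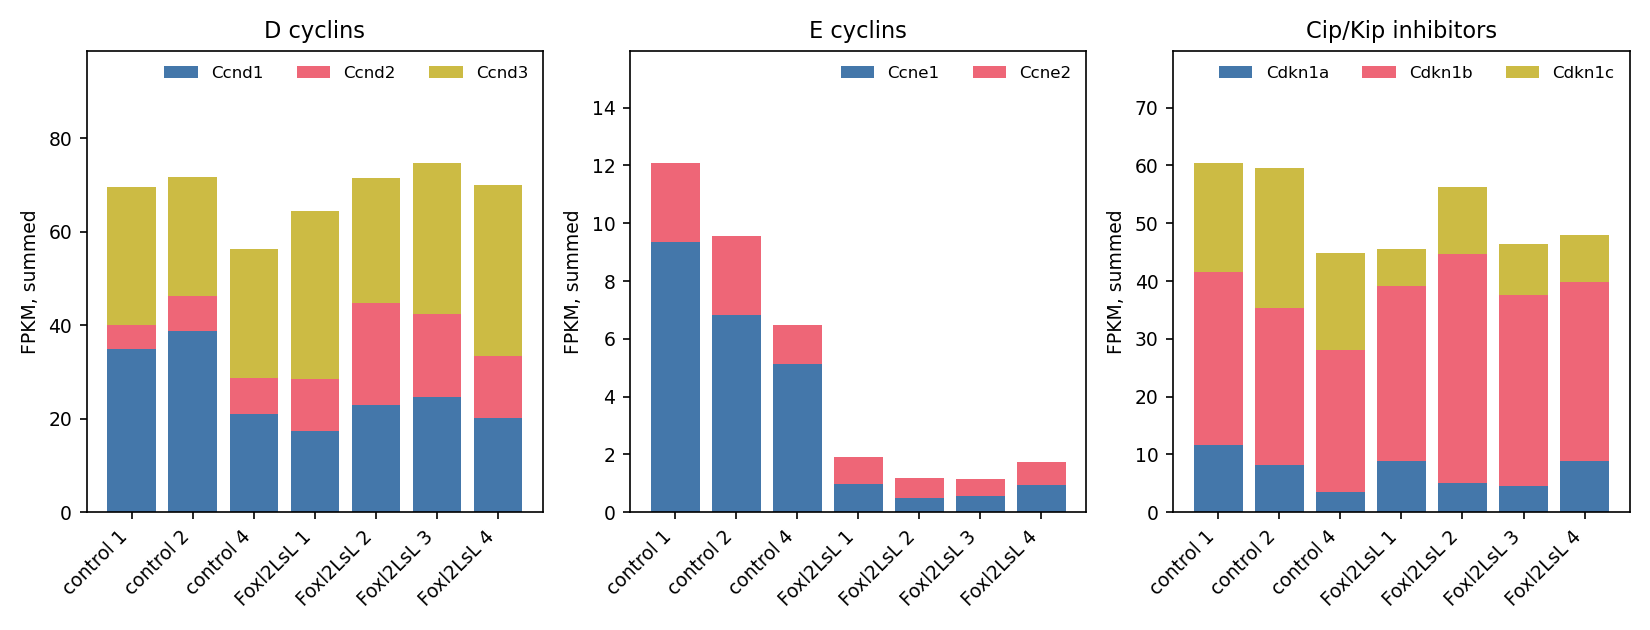
Summed FPKM (vertical axes, from 0) of the D cyclins, the E cyclins and the Cip/Kip inhibitors in each of the 7 libraries, with colours for the genes. D cyclin sums overlapped between the groups, E cyclin sums were 6.50 to 12.1 FPKM in controls and 1.14 to 1.90 FPKM in libraries labelled Foxl2LsL, and the Cdkn1c share of the Cip/Kip sum was lower in the latter.

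Both E-type cyclins, which activate CDK2 at the entry to S phase, fell. Ccne1 (cyclin E1; chromosome 7, 38097984 to 38107534, minus strand) was at 9.35, 6.84 and 5.14 FPKM in controls 1, 2 and 4. Libraries 1 to 4 labelled Foxl2LsL held 0.960, 0.503, 0.566 and 0.934 FPKM. The lowest control lay above 5 FPKM and no library of the other group reached 1 FPKM. Mean Ccne1 went from 7.11 ± 2.11 (SD, n = 3) to 0.741 ± 0.240 FPKM (SD, n = 4), which is 9.60-fold lower. The log2 fold change was -2.20 (SE 0.19; adjusted p 0.000319, limma with Benjamini-Hochberg), on a scale that understates the change of low genes. On the fragments recovered from FPKM, limma-voom gave -3.26 (adjusted p 0.000564). The smallest count behind a Ccne1 value was 47 fragments, a counting error of 14.6%, which covers counting only.

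Ccne2 (cyclin E2; chromosome 4, 11191351 to 11204779, plus strand) was at 2.75, 2.71 and 1.35 FPKM in controls 1, 2 and 4 and at 0.938, 0.696, 0.575 and 0.786 FPKM in the other group. Control 4 was again the lowest control, and it still lay above all libraries labelled Foxl2LsL. The log2 fold change was -0.88 (SE 0.18; adjusted p 0.00772, limma with Benjamini-Hochberg), and limma-voom on recovered fragments gave -1.54 (adjusted p 0.00723). Ccne1 was 2.53 to 3.80 times as abundant as Ccne2 in controls and 0.723 to 1.19 times in the other group, so the paralogs had like levels there. The ratio of summed D cyclins to summed E cyclins averaged 7.31 ± 1.47 over the controls (SD, n = 3) and 50.0 ± 15.0 over the libraries labelled Foxl2LsL (SD, n = 4). Ints8 overlaps Ccne2 on the opposite strand and was at 7.58 ± 0.782 and 6.66 ± 1.44 FPKM, with overlapping groups.

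The Cip/Kip inhibitors did not move together, since Cdkn1c fell while Cdkn1a and Cdkn1b did not pass the test. Cdkn1c (p57, an imprinted inhibitor; chromosome 7, 143458339 to 143461050, minus strand) was at 18.9, 24.1 and 16.9 FPKM in controls 1, 2 and 4. Libraries 1 to 4 labelled Foxl2LsL held 6.34, 11.5, 8.71 and 8.25 FPKM, and the groups did not overlap. Mean Cdkn1c went from 20.0 ± 3.72 (SD, n = 3) to 8.70 ± 2.13 FPKM (SD, n = 4), with a log2 fold change of -1.12 (SE 0.19; adjusted p 0.00319, limma with Benjamini-Hochberg). Cdkn1c lies in an imprinted domain with Kcnq1, Kcnq1ot1 (the noncoding RNA that silences the domain on 1 parental copy), Phlda2 and others. Of 8 other genes listed for that neighbourhood, 6 were tested: Kcnq1 (log2 fold change 1.03) and Slc22a18 (0.94) rose, Tssc4 (-0.53) and Nap1l4 (-0.22) fell, and Ascl2 (-0.26) and Cd81 (-0.12) did not pass. Kcnq1ot1 lay below the filter at 0.208 ± 0.0201 and 0.225 ± 0.0236 FPKM, and its groups overlapped. Phlda2 was at 0.256 ± 0.101 and 0.375 ± 0.205 FPKM.

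Cdkn1b (p27; chromosome 6, 134920401 to 134925513, plus strand) was at 30.0, 27.2 and 24.5 FPKM in controls 1, 2 and 4 and at 30.3, 39.6, 33.1 and 30.9 FPKM in the other group. These ranges did not overlap, but the highest control and the lowest of the other libraries differed by little. The change on the log2 scale was 0.29 (95% interval 0.03 to 0.55; adjusted p 0.0750, limma with Benjamini-Hochberg). It was 0.34 with an adjusted p of 0.0406 after centring each library on its median (limma), the only 1 of 19 alternatives in which Cdkn1b passed. After quantile normalization the adjusted p was 0.060, and after rescaling to a common sum it was 0.135 (limma). Cdkn1a (p21, a target of p53; chromosome 17, 29090976 to 29100727, plus strand) was at 11.6, 8.22 and 3.51 FPKM in controls 1, 2 and 4 and at 8.92, 5.10, 4.54 and 8.86 FPKM in the other group. All libraries labelled Foxl2LsL lay inside the range of the controls. The log2 fold change of Cdkn1a was -0.09 (95% interval -0.94 to 0.77; limma, adjusted p 0.868), and its sign turned when single libraries were left out (-0.51 to 0.23). The interval allows a change of either sign, and no difference was detectable beyond this spread.

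Cdkn1b made up 45.7% to 54.5% of the summed Cip/Kip FPKM in controls and 64.4% to 71.4% in libraries labelled Foxl2LsL. For Cdkn1c the share was 31.3% to 40.5% and 13.9% to 20.5%. The ratio of summed D cyclins to summed Cip/Kip inhibitors was 1.20 ± 0.0527 (SD, n = 3) and 1.44 ± 0.140 (SD, n = 4). It ranged from 1.15 to 1.26 in controls and from 1.27 to 1.61 in the other group, so the ranges nearly touched. Both sums overlapped between the groups, and these shares and the ratio were not tested.

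Of the INK4 inhibitors, Cdkn2c fell and Cdkn2b did not pass the test. Cdkn2c (p18; chromosome 4, 109660876 to 109667189, minus strand), itself a known E2F target, was at 11.3, 12.0 and 9.42 FPKM in controls 1, 2 and 4 and at 6.48, 6.12, 7.68 and 7.22 FPKM in the other group. No value of the libraries labelled Foxl2LsL reached the lowest control. This is a log2 fold change of -0.60 (SE 0.11; adjusted p 0.00424, limma with Benjamini-Hochberg). Cdkn2b (p15; chromosome 4, 89306299 to 89311039, minus strand) was at 1.54, 1.39 and 0.558 FPKM in controls 1, 2 and 4 and at 1.95, 1.55, 1.87 and 2.06 FPKM in the other group. Control 1 and library 2 labelled Foxl2LsL nearly touched, and control 4 was far below the other controls. On the log2 scale the change was 0.43 (95% interval 0.02 to 0.85; limma, adjusted p 0.0895). With the adipose marker mean as a covariate, chosen after seeing the data, it was 0.55 with an adjusted p of 0.0313 (limma). This was the only 1 of the 18 alternatives with Cdkn2b in which it passed. The neighbouring Cdkn2a (p16 and p19ARF) lay below the filter at 0.403, 0.288 and 0.174 FPKM in controls and 0.739, 0.405, 0.495 and 1.16 FPKM in the other group. Its two-sided exact permutation p was 0.0571, the smallest that 3 against 4 libraries allow, and at least 13 fragments lay on it in each library. Cdkn2d (p19, the remaining INK4 gene) was at 9.97 ± 1.30 and 8.90 ± 1.04 FPKM and did not pass.

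**Figure D3:**
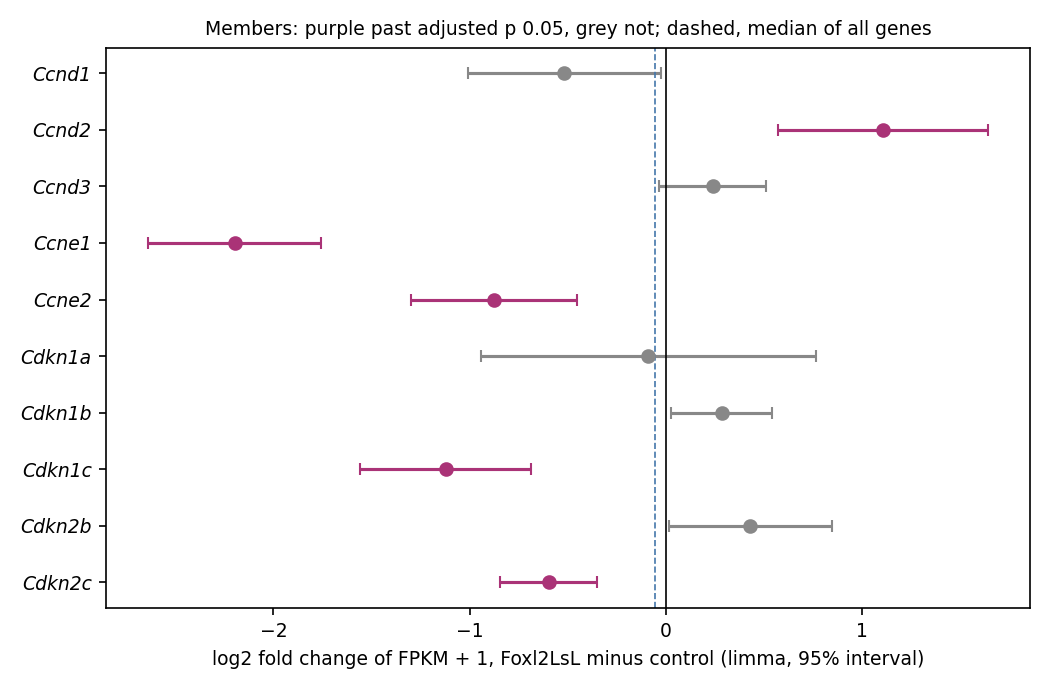
Log2 fold change of each of the 10 genes (horizontal axis, libraries labelled Foxl2LsL minus control, on log2(FPKM + 1)) with its 95% interval from limma, purple where the adjusted p was under 0.05. The dashed line is the median of all tested genes, -0.05, and the purple genes are Ccne1, Ccne2, Cdkn1c, Cdkn2c and Ccnd2. The intervals are not adjusted for the number of genes, and those of Ccnd1, Cdkn1b and Cdkn2b exclude 0 as well.

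The order of mean FPKM among the 10 genes also differed, and this was not tested. FPKM is scaled to length, which permits only a rough comparison between genes. In controls Ccnd1, Ccnd3 and Cdkn1b were the highest of the 10, at means of 31.6, 27.6 and 27.2 FPKM, and their ranges overlapped. Cdkn1c followed at 20.0 FPKM, apart from both neighbours in the order. Cdkn2c, Cdkn1a, Ccne1 and Ccnd2 came next at 10.9, 7.77, 7.11 and 6.75 FPKM, with each overlapping the next. Ccne2 and Cdkn2b were lowest at 2.27 and 1.16 FPKM, with overlapping ranges. In the libraries labelled Foxl2LsL, Cdkn1b and Ccnd3 were highest at 33.5 and 32.9 FPKM, with overlapping ranges. Ccnd1 and Ccnd2 followed at 21.2 and 16.0 FPKM with overlapping ranges. Next came Cdkn1c, Cdkn2c, Cdkn1a and Cdkn2b at 8.70, 6.88, 6.85 and 1.86 FPKM. Ccne2 and Ccne1 were lowest at 0.749 and 0.741 FPKM, again with overlapping ranges.

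In a list of 26 G1 kinases and regulators, 25 were tested, with 9 lower and 3 higher and a median log2 fold change of -0.13. A count of 12 of 25 is near the 40.6% of all tested genes that passed, so it is not a result about these partners as a group. Without control 2 this count of 12 was 7. Cdk4, a partner kinase of the D cyclins, was at 200, 176 and 170 FPKM in controls 1, 2 and 4 and at 119, 101, 107 and 106 FPKM in the other group (log2 fold change -0.74, SE 0.09; adjusted p 0.000910, limma with Benjamini-Hochberg). The groups did not overlap. Cdk6 was at 4.18 ± 1.09 and 5.58 ± 0.905 FPKM and did not pass (0.36; adjusted p 0.123, limma). Cdk2, the partner of cyclin E, fell from 25.2 ± 5.56 to 16.5 ± 1.35 FPKM. Of the ubiquitin ligase that marks p27 (Cdkn1b) for destruction, the subunit Skp2 fell from 5.35 ± 0.783 to 1.90 ± 0.197 FPKM, and its cofactor Cks1b from 40.7 ± 13.8 to 15.8 ± 4.82 FPKM. The subunits Cul1 (log2 fold change -0.11; adjusted p 0.289, limma) and Skp1a (-0.14; adjusted p 0.230) did not pass. Fbxw7, which directs cyclin E to destruction, rose from 4.97 ± 0.0185 to 7.31 ± 1.06 FPKM (log2 fold change 0.47). Cdkn3 (-1.60) and Cks2 (-1.27), both cell-cycle regulated, and Cdc25a (-0.95), a phosphatase that activates CDK2, also fell. The groups overlapped for Cks2, at 19.5 FPKM in control 4 and 19.9 FPKM in library 1 labelled Foxl2LsL. Myc, a growth factor-induced regulator, fell by 0.60 on the log2 scale (adjusted p 0.0363, limma), with control 4 the highest at 39.9 FPKM against 22.2 and 27.2 FPKM in controls 1 and 2.

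Among 18 pocket protein and E2F genes, all tested, 10 were lower and 0 higher past the threshold, with a median log2 fold change of -0.46. At an unadjusted p under 0.05, 1 was higher, and by limma-voom 0 were higher past the adjusted threshold. Over all tested genes, 23.9% were lower and 16.7% higher past the adjusted threshold. E2f1, an activator of S phase genes, was at 8.71, 6.17 and 4.33 FPKM in controls 1, 2 and 4 and at 1.59, 0.959, 1.17 and 1.48 FPKM in the other group. The groups did not overlap (log2 fold change -1.65; adjusted p 0.00107, limma with Benjamini-Hochberg). E2f8 (-1.98) and E2f7 (-1.63), the repressors that follow E2F activity, and Tfdp1 (-1.01), the dimer partner, also fell. The retinoblastoma gene Rb1 (4.19 ± 0.743 and 3.69 ± 0.208 FPKM) and Rbl2 (12.0 ± 2.60 and 14.5 ± 1.75 FPKM) did not pass, while Rbl1, an E2F target as well, fell by 0.68 on the log2 scale.

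Downstream of cyclin E, 22 of 22 S phase cyclin and E2F target genes were lower past the threshold, with log2 fold changes of -2.35 to -0.48 and a median of -1.30. Ccna2 (cyclin A2) was at 27.6, 22.1 and 12.0 FPKM in controls 1, 2 and 4 and at 4.86, 1.48, 3.13 and 3.34 FPKM in the other group. Uhrf1 (-2.31) and Rrm2 (-2.28) had like changes. All 12 proliferation markers were lower as well, with a median of -2.20, led by Top2a (-2.63), Ccnb1 (-2.52) and Ccnb2 (-2.41). Over all tested genes, 23.9% were lower. The cell cycle was already seen to differ between these groups in earlier results of these data, so this is a description and not independent evidence.

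**Figure D4:**
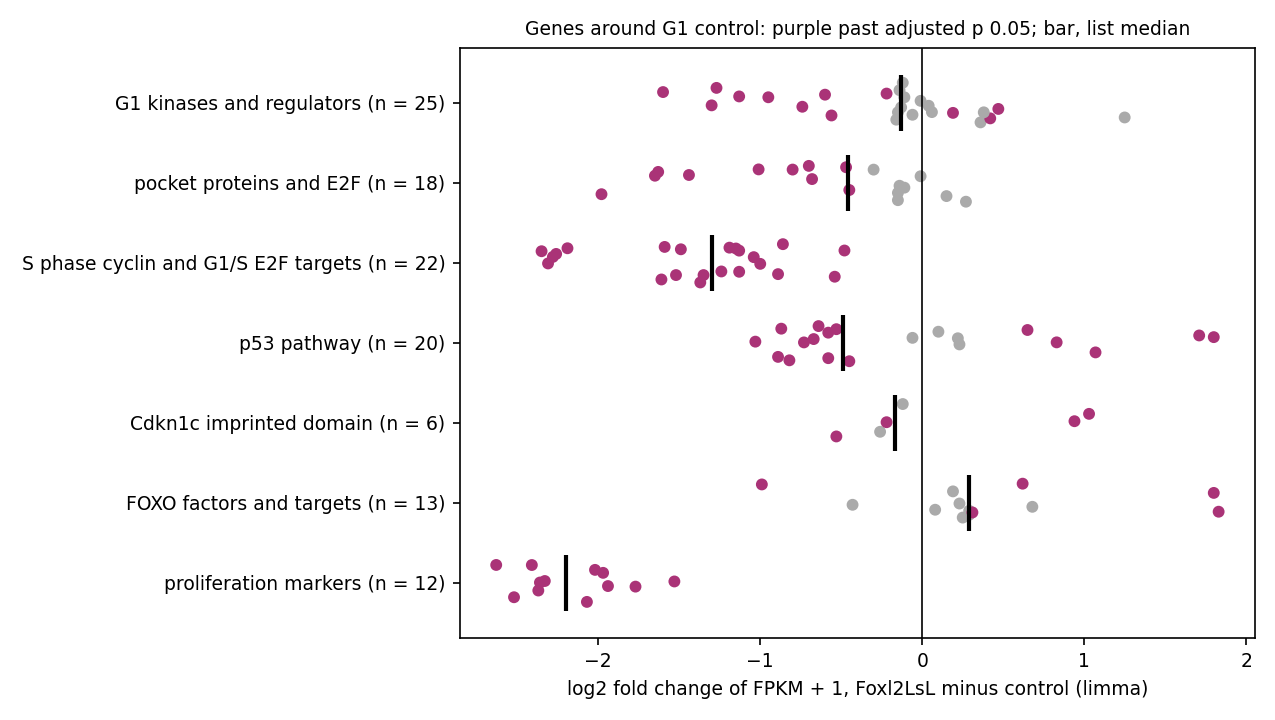
Log2 fold change (horizontal axis, libraries labelled Foxl2LsL minus control) of every tested gene in 7 lists around G1 control. Each list has 1 point per gene, purple where the adjusted p was under 0.05, with the list median as a bar. Gadd45a and Sesn1 appear in both the p53 and the FOXO list. All 22 S phase genes and all 12 proliferation markers lie left of 0, whereas the p53 and FOXO lists have points on both sides.

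Genes of the p53 and FOXO lists moved both ways. Both lists hold Gadd45a and Sesn1, so their counts are not separate. Of 20 tested p53 pathway genes, 5 were higher and 11 lower, with a median log2 fold change of -0.49. Over all tested genes, 16.7% were higher and 23.9% lower. Trp53 fell from 62.8 ± 9.27 to 41.3 ± 1.30 FPKM, and Mdm2, a p53 target like Cdkn1a, was at 15.4 ± 1.30 and 14.7 ± 0.889 FPKM and did not pass. Gadd45a, which binds p21 and PCNA, was at 17.3, 22.6 and 10.2 FPKM in controls 1, 2 and 4 and at 65.7, 61.5, 52.5 and 53.7 FPKM in the other group (log2 fold change 1.80; adjusted p 0.00120, limma with Benjamini-Hochberg). Perp rose from 19.2 ± 4.70 to 64.4 ± 7.34 FPKM and Trp53inp1 from 9.91 ± 1.40 to 22.4 ± 5.97 FPKM. Of 13 tested FOXO factors and targets, the forkhead factors that can induce Cdkn1b among them, 4 were higher and 1 lower, with a median of 0.29, and 5 of 13 is again near the 40.6% over all tested genes. Without library 1 labelled Foxl2LsL 8 of them passed, 7 higher and 1 lower. Txnip, a growth-restraining target, rose from 110 ± 20.1 to 398 ± 84.5 FPKM (log2 fold change 1.83), and Trib1 fell by 0.99 on the log2 scale. Foxo1 (0.08), Foxo3 (0.19) and Foxo4 (0.29) did not pass.

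Summed markers of uterine gland, endothelium, leukocytes, stratified epithelium and skeletal muscle did not overlap between the groups. Single tested genes did not overlap in 47.6% of cases, so a lack of overlap is common in these data. Those of simple epithelium, smooth muscle and stroma overlapped. Of all tested genes 40.6% passed, so the counts for simple epithelium, smooth muscle, stroma and leukocytes are not a result about these markers. Fewer cells of a type cannot be told apart from less RNA per cell in whole tissue. The 3 tested uterine gland markers were all lower, with a summed level over 5 listed genes of 60.6 to 95.3 FPKM in controls and 19.3 to 23.6 FPKM in the other group. In endothelium 5 of 8 tested markers were lower and 2 higher, with sums of 141 to 185 and 111 to 125 FPKM. Leukocyte markers summed to 26.6 to 38.1 and 40.4 to 78.3 FPKM, with 2 of 5 tested higher. Those of smooth muscle summed to 958 to 1826 and 1662 to 2101 FPKM, with 3 of 9 higher, and of simple epithelium to 823 to 1553 and 1241 to 1939 FPKM, with 3 of 10 higher. Stroma (1165 to 1870 and 1629 to 1903 FPKM) had 1 of 8 tested genes higher and 2 lower. Stratified epithelium, with 2 of 7 genes tested and 1 of them higher, summed to 6.91 to 7.78 and 9.58 to 12.9 FPKM. Skeletal muscle, with Myh4 at 0 in all libraries, summed to 18.9 to 60.0 and 6.74 to 13.0 FPKM. Sums also overlapped for oviduct and ciliated cells (29.1 to 319 and 44.5 to 52.3 FPKM) and for mesothelium (75.6 to 126 and 39.8 to 98.7 FPKM). For 3 tested oviduct and ciliated markers, mean log2(FPKM + 1) was 2.58, 5.01 and 3.26 in controls 1, 2 and 4. In libraries 1 to 4 labelled Foxl2LsL it was 3.22, 3.41, 3.34 and 3.10. Control 2 was thus the highest, and whether that sample held oviduct tissue was not tested. The part of these differences in the changes of the cyclins and inhibitors was not tested.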

How the data were processed

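Whole-uterus RNA of 3 Pgrcre/+ and 4 Pgrcre/+Foxl2LsL/+ libraries was extracted with TRIzol and made into Illumina libraries, per the labels' protocols. The submitters' processing notes name STAR 2.5.2b, featureCounts 1.5.0-p1 (Subread), DESeq2 1.12.4 and the build mm10, without roles. The authors deposited 1 table of FPKM per gene and library with gene lengths, another value per gene, per the file headers. Annotation and strand use are not given in the sources used here.

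FPKM times length fell on whole multiples of 1 step in each library (100% of 1647 to 1819 low values within 0.1 of a whole number), which gave the fragments. Genes with a mean of at least 1 FPKM were tested (13334, with 11630 dropped) on log2(FPKM + 1) with limma 3.58.1 in R 4.3.3 (intensity trend, Benjamini-Hochberg, threshold 0.05). Groups came from the genotypes in the titles. On simulated data with 13334 genes, limma called 186 of 200 genes given a log2 change of 1.5, with the correct sign, and 10 unchanged genes. The simulated noise was independent between genes, and far fewer genes were changed than passed in the data. Smaller changes and changes in the lowest tested genes were not simulated. Other steps used Python 3.11.15, scipy 1.17.1 and pandas 2.3.3. Coordinates came from GENCODE M21 on GRCm38 and sequences from RefSeq on GRCm38.p6.

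The members and gene lists were chosen with earlier results of these data known. Named were all members, 11 fixed partners (Cdk2, Cdk4, Cdk6, Rb1, Rbl1, Rbl2, E2f1, Myc, Skp2, Trp53 and Mdm2), the up to 3 largest changes past the threshold in each list and the genes most like each member. Other genes of these lists and the genes that overlap members were named after their values were seen. Alternatives varied the pseudocount, filter, scaling, model, libraries and replicate block.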

Additional observations from a re-analysis of the deposited data

How the results depend on the processing

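Under 19 alternatives, Ccnd2, Ccne1, Ccne2, Cdkn1c and Cdkn2c kept their direction and their call wherever they were tested. The filter at a mean of 5 FPKM dropped Ccne1, Ccne2 and Cdkn2b, which left 3 members past the threshold, and it left 3 pocket protein and E2F genes and 10 p53 pathway genes. When each library was left out in turn, Ccnd1 ranged from -0.78 to -0.35 and passed without control 4, Ccnd3 from 0.19 to 0.33 and passed without Foxl2LsL 2, and Cdkn1a from -0.51 to 0.23. In the same fits 7 to 11 G1 kinases and regulators and 4 to 8 FOXO genes passed. Cdkn1b passed with median centring (0.34). With the adipose covariate, chosen after seeing the data, Cdkn2b passed (0.55) and Cdkn1a was 0.26. For all but the stricter filter, the cause was not tested. Higher genes made up 41.1% of calls on the deposited FPKM, 49.2% after quantile normalization and 50.4% after median centring. A replicate block needs libraries 1, 2 and 4 of each group, so it leaves out Foxl2LsL 3. Over all genes, 5409 passed in the 7 libraries, 3975 in those 6 without the block and 3243 with it, and Cdkn1a was 0.063 in the 6 with and without the block. Deviations of same-numbered libraries correlated at 0.23, -0.03 and -0.11, and the main fit did not take the numbers as pairs. Such deviations are tied to the means of small groups, so these values cannot decide whether pairs or a shared batch exist. Depth limits Ccne1, Ccne2 and Cdkn2b most, with counting errors of up to 14.6%, 9.67% and 14.0%.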

Other observations

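Control 4 was the lowest or highest control for most members and the lowest by the mean of proliferation markers, and no test was made of this. An extreme of 3 libraries need not stand apart. Control 2 lay furthest from the other controls for Cdkn1c (18.9, 24.1 and 16.9 FPKM), and control 1 for Ccnd2 (5.09, 7.42 and 7.75 FPKM). The mean log2(FPKM + 1) of the 12 proliferation markers was 4.34, 4.07 and 3.14 in controls 1, 2 and 4, and 2.16, 1.13, 1.76 and 1.70 in libraries 1 to 4 labelled Foxl2LsL. Control 4 was the lowest control for Ccnd1, Ccne1, Ccne2, Cdkn1a, Cdkn1b, Cdkn1c, Cdkn2b and Cdkn2c, and the highest for Ccnd2.

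As a description over 7 libraries that fall into 2 groups, the likeness of each member to 123 other genes of the lists was taken as Pearson's r of log2(FPKM + 1). Ccne1 was most like E2f1 (0.995), Ccne2 most like Cdc6 (0.990), Cdkn2c most like Pola1 (0.984), and Ccnd2 most like Rrm2b (0.983). Cdkn1b was most like Irs2 (0.956), Cdkn2b like Mycn (0.951), Cdkn1c like Plk2 (0.946), Ccnd3 like Btg2 (0.926), Ccnd1 like Rfc4 (0.880) and Cdkn1a like Foxo1 (0.809). For deviations from the group means, Rrm2b was again most like Ccnd2 (0.965) and Btg2 most like Ccnd3 (0.971), and Irs2 was most like Cdkn1b (0.991) and Pola1 most like Cdkn2c (0.886). The other partners changed: by deviations Ccne1 was most like Pmaip1 (0.992), Ccne2 like Tfdp1 (0.981), Cdkn1a like Cdc25a (0.984), Cdkn2b like Mcm6 (0.994), Ccnd1 like Bcl6 (0.961) and Cdkn1c like Cul1 (0.896). The highest of many values over so few libraries is large by construction.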
